A study of Homo sapiens with 6 samples.

Results

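The interferon-stimulated effector genes are the genes through which a cell acts on a virus once interferon has been sensed. They were taken as the rows of the count table whose symbol stands in a list of 40 antiviral effectors; sensors, signal transducers, interferon regulatory factors and HLA genes were left out of that list. All 40 were among the 38167 genes of the table, and all 40 were among the 18676 genes with enough counts to be tested. The genes were measured in spheroids of Cal27, an established line from a human squamous cell carcinoma of the tongue, grown by liquid overlay in Matrigel, a gel of reconstituted basement membrane proteins. Stiff spheroids stood in 12 mg/mL Matrigel and soft spheroids in 3 mg/mL Matrigel, with 3 libraries of polyadenylated RNA from each condition on day 14 and no other agent named. The comparison asks how a denser and stiffer matrix changes these genes, and the design varies both properties at once through the Matrigel concentration. The labels call the libraries biological replicates of 1 line without saying whether they came from separate cultures, so p-values reflect only how much these libraries vary.

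Type I and type III interferons bind their receptors and, through JAK kinases, lead to the assembly of a transcription factor complex, with STAT2 and IRF9 in it, that binds the interferon-stimulated response element in the promoters of these genes. The proteins made then bind or degrade viral RNA, or block the entry or release of virus particles. Others tag proteins with the ubiquitin-like modifier ISG15, or make a chain terminator for viral polymerases. Many tumour cell lines, squamous carcinoma lines among them, transcribe a part of this programme without added interferon.

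The letters of that element, GAAA, any 2 bases and GAAA again, on either strand and with overlapping matches counted, were looked for in the 250 bases before each annotated start in the RefSeq promoter table for GRCh38.p14. The table held 33 of the 40 genes, and 22 of these (66.7%) had a match, against 1014 of all 27305 genes in the table (3.71%) and 469 of the 13261 tested genes in it (3.54%). The 10 stretches of 30 bases printed here were taken because they come from genes that were higher in stiff (HERC5, RSAD2), lower in stiff (ISG15, IFIT1, IFI44L, OAS3, PARP9, SAMD9) and not past the threshold (BST2, DDX60L). The capitals mark the match and each stretch is written 5′ to 3′ on the strand of its gene.
HERC5 (chr4:88457035-88457064, plus strand): aaacattatgTTTCGTTTTCcactggagct
RSAD2 (chr2:6877622-6877651, plus strand): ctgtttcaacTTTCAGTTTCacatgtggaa
ISG15 (chr1:1013380-1013409, plus strand): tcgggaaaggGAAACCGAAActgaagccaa
IFIT1 (chr10:89392510-89392539, plus strand): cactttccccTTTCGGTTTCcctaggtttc
IFI44L (chr1:78620365-78620394, plus strand): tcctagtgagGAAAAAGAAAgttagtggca
OAS3 (chr12:112938321-112938350, plus strand): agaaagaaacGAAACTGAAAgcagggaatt
PARP9 (chr3:122564322-122564351, minus strand): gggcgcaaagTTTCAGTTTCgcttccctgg
SAMD9 (chr7:93118096-93118125, minus strand): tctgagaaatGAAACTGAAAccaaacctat
BST2 (chr19:17405741-17405770, minus strand): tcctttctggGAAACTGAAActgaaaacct
DDX60L (chr4:168480523-168480552, minus strand): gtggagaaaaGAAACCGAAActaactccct
The same letters stood before genes that behaved differently. GAAACTGAAA, read on one strand or the other, was found in RSAD2, which was higher in stiff, and in BST2, which did not pass. It was also found in OAS3, SAMD9, PARP9, DDX60, GBP1, IFI44 and IFIT3, which were lower. GAAACCGAAA, read likewise, was found in ISG15, IFIT1, IFIT5, IFI27, DDX60 and EPSTI1, which were lower, and in DDX60L, which did not pass. IFI44L carried its 30 printed bases a second time, at chr1:78620274-78620303.

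Most of the effector genes were expressed at a lower level in stiff Matrigel than in soft Matrigel. In edgeR's quasi-likelihood test over all tested genes, 31 of the 40 fell and 4 rose (HERC5, OASL, GBP2 and RSAD2) at an adjusted p below 0.05, while 5 did not pass (BST2, DDX60L, PSMB8, PSMB9 and LGALS3BP). Over all tested genes, 23.8% fell and 25.3% rose, 49.1% in either direction. The median log2 fold change was -0.76 over the 40 genes and -0.000174 over all genes. At least 2-fold falls were found in 12 of the 40, where 5.62% of all genes fell that far, and 0 of the 40 rose 2-fold, where 7.6% of all genes did. The 3 stiff values lay below all 3 soft values in 32 of the 40 (29.6% of all genes) and above them in 4 (30.3% of all genes). Together the 40 genes took 0.479% to 0.517% of the counted fragments in the stiff libraries, against 0.817% to 0.847% in the soft libraries. In bulk RNA, fewer cells that express these genes and less RNA per cell cannot be told apart.

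**Figure D1:**
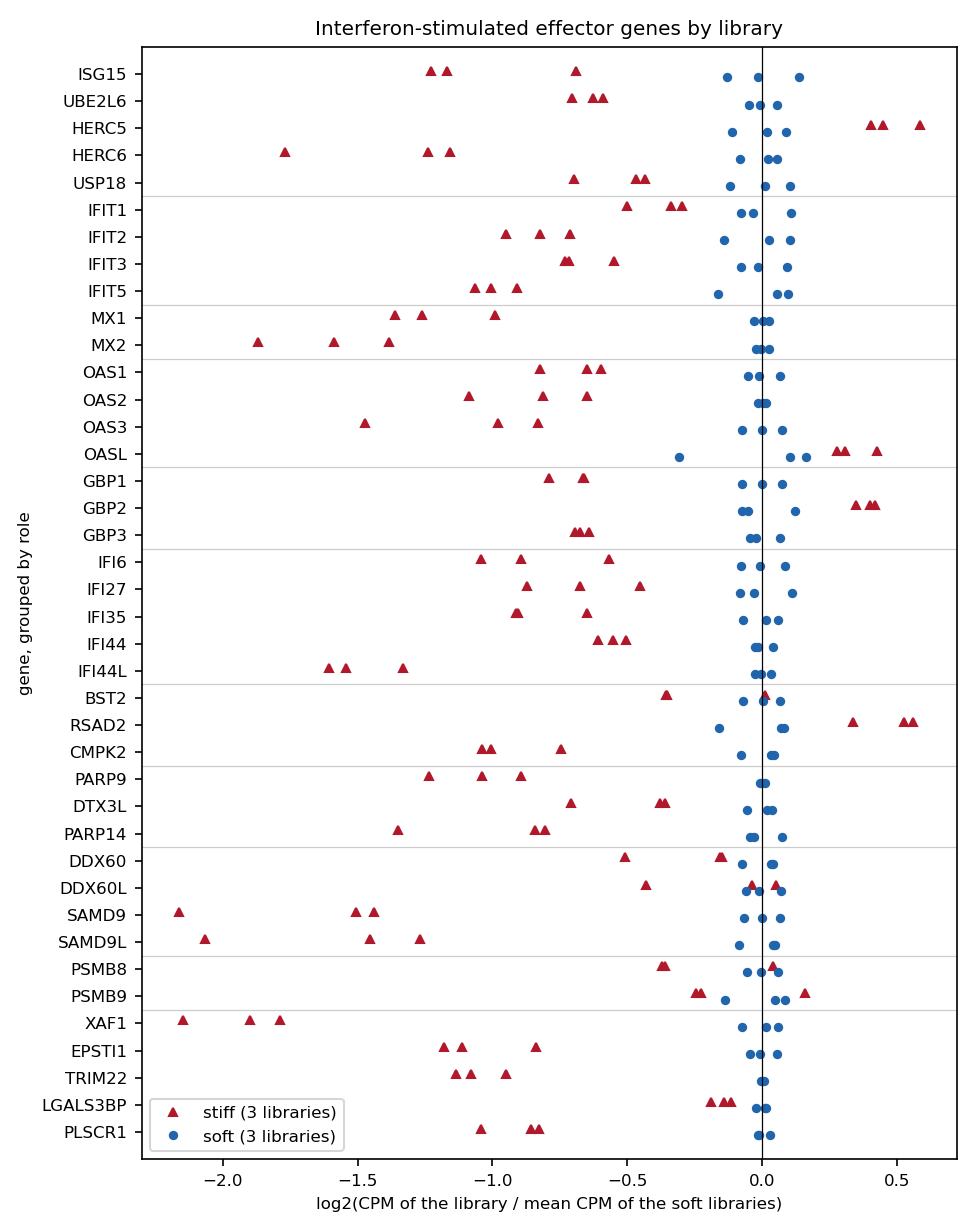
Each row is 1 of the 40 effector genes and each symbol 1 library (triangles stiff, circles soft); the x axis is the log2 ratio of the library's CPM to the mean CPM of the 3 soft libraries. Stiff values lie left of the soft values for 32 genes and right of them for HERC5, OASL, GBP2 and RSAD2.

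The libraries held 35292340 to 36594685 counted fragments in stiff and 30656278 to 40583044 in soft. Stiff replicate 2 stood apart from the other stiff libraries: the chi-square per degree of freedom of their counts was 30.7 and 30.2 in its pairs with replicates 1 and 3, against 3.26 between replicates 1 and 3, and 5.62 to 6.99 between soft libraries. Without stiff replicate 2, 35 of the 40 genes were lower and 4 were higher, and all 35 calls made with it remained. In that fit, 5224 of 19053 tested genes were lower and 5379 higher, against 4449 and 4722 of 18676 with stiff replicate 2. Of markers of the labelled squamous epithelium, summed CPM was 12127 to 12790 in stiff and 3401 to 3799 in soft, mostly from the keratins KRT5 and KRT14. Of these markers, 3 of 5 were higher (KRT5, KRT14 and TP63) and 2 lower (EPCAM and CDH1). The 8 leukocyte markers summed to 104 to 110 CPM in stiff and 56.0 to 62.7 CPM in soft, mostly from the lysosomal protein CD68, which other cells also make; 3 had enough counts to be tested and 2 of these were higher. The pan-leukocyte marker PTPRC had 0, 1 and 3 fragments in stiff and 1, 0 and 0 in soft. The 4 endothelial markers summed to 3.39 to 4.21 CPM in stiff and 1.86 to 2.23 CPM in soft (1 of 2 tested higher, VWF), and the 6 fibroblast markers to 99.1 to 106 CPM in stiff and 72.8 to 80.3 CPM in soft (2 of 4 tested higher, COL1A1 and LUM). No marker was at 0 in all 6 libraries, and the part of other cell types in the results was not tested.

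The ISG15 conjugation genes split. ISG15, the modifier itself, had 89.1, 129 and 92.7 CPM (counts scaled to library size) in the stiff libraries and 206, 229 and 190 CPM in the soft libraries. It fell 2.01-fold (log2 fold change -1.01 ± 0.13 SE, edgeR adjusted p = 0.000188), and the groups did not overlap. UBE2L6, the enzyme that carries ISG15 to its ligase, averaged 105 ± 4.29 CPM in stiff and 163 ± 5.98 CPM in soft (SD, n = 3 each) and fell 1.56-fold. USP18, the protease that removes ISG15 and also restrains the interferon receptor, fell 1.44-fold. USP41, a near-identical copy of USP18, had only 22 to 101 fragments per library, so reads shared between these genes leave the USP18 count uncertain.

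The ligases of the same family went opposite ways. HERC5, the main ISG15 ligase of human cells, had 15.7, 14.2 and 13.8 CPM in stiff and 9.65, 10.6 and 11.1 CPM in soft. Every stiff value exceeded every soft value, and HERC5 rose 1.40-fold (log2 fold change 0.48 ± 0.10 SE, edgeR adjusted p = 0.00286). HERC6, its neighbour 14005 bases away on chromosome 4, had 23.6, 16.3 and 24.9 CPM in stiff and 57.8, 56.4 and 52.5 CPM in soft. HERC6, which serves as the ISG15 ligase in mice, fell 2.57-fold (log2 fold change -1.36 ± 0.14 SE, edgeR adjusted p = 3.06e-05). The HERC5 promoter held 3 matches to the element and the HERC6 promoter held 0.

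All 4 IFIT genes, whose family of proteins acts against foreign RNA, fell. The largest of these falls was that of IFIT5, with 23.0, 22.0 and 24.5 CPM in stiff and 47.9, 49.2 and 41.2 CPM in soft (1.99-fold, edgeR adjusted p = 1.54e-05). IFIT2 fell 1.77-fold and IFIT3, which stabilises IFIT1 on RNA, fell 1.58-fold. IFIT1 itself had 81.7, 91.3 and 94.0 CPM in stiff and 113, 124 and 109 CPM in soft. Its fall was the smallest of the 4, at 1.30-fold (edgeR adjusted p = 0.00322), and its groups did not overlap.

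Both MX genes, dynamin-like GTPases that trap viral nucleocapsids, fell more than 2-fold. MX1, known for its action on influenza virus, had 174, 162 and 209 CPM in stiff and 418, 423 and 408 CPM in soft (2.29-fold, edgeR adjusted p = 5.60e-06). MX2, known for blocking nuclear import of HIV, had 38.1, 31.3 and 43.8 CPM in stiff and 114, 116 and 113 CPM in soft. It fell 3.03-fold (edgeR adjusted p = 2.26e-06). The soft values of MX2 lay within 4 CPM of each other, while the stiff values differed by a larger share of their mean.

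The oligoadenylate synthases OAS1, OAS2 and OAS3, which make a second messenger in response to double-stranded RNA, fell 1.61-fold, 1.79-fold and 2.10-fold. OAS3, the form most active on long double-stranded RNA, had 170, 121 and 188 CPM in stiff and 353, 335 and 318 CPM in soft (edgeR adjusted p = 0.000148). OASL, a relative that has lost synthase activity, had 52.0, 46.9 and 47.9 CPM in stiff and 31.2, 43.3 and 41.6 CPM in soft. Its soft values spread widely because soft replicate 1 was low, and the groups stood apart by less than that spread. OASL rose 1.27-fold (log2 fold change 0.34 ± 0.12 SE, edgeR adjusted p = 0.0344). Without soft replicate 1 its adjusted p was 0.116 in edgeR, and adjusted p ranged from 0.00326 to 0.246 over all alternatives. OASL lies on chromosome 12 like OAS1, OAS2 and OAS3, and is 8007387 bases away from the nearest of them.

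Of the guanylate-binding proteins, large GTPases that coat intracellular pathogens and are strongly induced by interferon-gamma, GBP1 and GBP3 fell and GBP2 rose. GBP1 had 47.2, 43.3 and 47.4 CPM in stiff and 71.0, 78.8 and 74.7 CPM in soft (1.63-fold lower, edgeR adjusted p = 4.06e-05). GBP3 fell 1.59-fold. GBP2 had 343, 330 and 347 CPM in stiff and 247, 250 and 283 CPM in soft. The groups did not overlap, and GBP2 rose 1.31-fold (log2 fold change 0.39 ± 0.07 SE, edgeR adjusted p = 0.00152). The 3 genes lie close together on chromosome 1, GBP2 at 40771 bases from GBP1. The pseudogene GBP1P1 had 166 to 326 fragments per library.

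All 5 IFI genes fell. IFI44L had 51.8, 54.1 and 62.6 CPM in stiff and 161, 157 and 155 CPM in soft, and its smaller relative IFI44 had 131, 136 and 141 CPM in stiff and 197, 196 and 205 CPM in soft. The genes are neighbours on chromosome 1, and the fall was 2.81-fold for IFI44L and 1.47-fold for IFI44. IFI6, a small membrane protein that limits flavivirus replication, fell 1.77-fold, IFI27, a mitochondrial protein, fell 1.58-fold, and IFI35, a partner of NMI, fell 1.76-fold. IFI27 varied more among stiff libraries (337, 450 and 386 CPM) than among soft libraries (581, 664 and 602 CPM), and its groups stayed apart.

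Viperin, the product of RSAD2, turns the nucleotide CTP into a chain terminator for viral polymerases, and CMPK2 is the kinase that supplies it with CTP. RSAD2 had 63.2, 54.2 and 61.8 CPM in stiff and 38.4, 45.0 and 45.3 CPM in soft. Its stiff values all exceeded its soft values, and it rose 1.39-fold (log2 fold change 0.48 ± 0.09 SE, edgeR adjusted p = 0.00180). CMPK2 had 23.1, 22.5 and 27.6 CPM in stiff and 43.7, 47.3 and 47.7 CPM in soft (log2 fold change -0.92 ± 0.09 SE, edgeR adjusted p = 3.13e-05). The genes lie on opposite strands of chromosome 2, RSAD2 from 6865806 to 6898239 on the plus strand and CMPK2 from 6840570 to 6866635 on the minus strand, so that their outermost 5′ ends overlap. The printed RSAD2 element lies 145 bases before a start farther inside the gene, and the upstream bases of the CMPK2 starts held no match.

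BST2 (tetherin), which holds budding virus particles at the cell surface, was not called. It had 217, 280 and 217 CPM in stiff and 279, 291 and 264 CPM in soft (log2 fold change -0.22 ± 0.10 SE, edgeR adjusted p = 0.0912). Stiff replicates 1 and 3 lay below every soft library, and stiff replicate 2 lay among them. Without stiff replicate 2, BST2 was lower in stiff (log2 fold change -0.35, edgeR adjusted p = 2.12e-05).

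The genes of ADP-ribosylation all fell. PARP9 and DTX3L form a complex that modifies ubiquitin, and their genes lie on opposite strands of chromosome 3 with overlapping 5′ ends, DTX3L starting at 122564238 and PARP9 at 122564577. PARP9 had 122, 107 and 135 CPM in stiff and 253, 251 and 250 CPM in soft (2.07-fold, edgeR adjusted p = 7.95e-06). DTX3L had 97.7, 76.7 and 96.5 CPM in stiff and 127, 121 and 129 CPM in soft (1.39-fold, edgeR adjusted p = 0.00221). Both fell, PARP9 by more than DTX3L. PARP14, a mono-ADP-ribosyltransferase and the longest of the 40 transcripts, fell 1.97-fold.

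SAMD9 and its neighbour SAMD9L, which stop protein synthesis in poxvirus-infected cells, fell 3.18-fold and 2.95-fold. SAMD9 had 213, 135 and 223 CPM in stiff and 632, 577 and 604 CPM in soft (log2 fold change -1.67 ± 0.16 SE, edgeR adjusted p = 2.00e-05). Stiff replicate 2 was the lowest of all libraries for both genes. The helicase DDX60 fell 1.20-fold at the edge of the threshold (edgeR adjusted p = 0.0490, and 0.0711, 0.122 and 0.131 without soft replicates 1, 2 and 3). Its relative DDX60L had 24.2, 18.5 and 25.8 CPM in stiff and 24.7, 23.9 and 26.1 CPM in soft. The DDX60L groups overlapped (log2 fold change -0.12, edgeR adjusted p = 0.411), and the sign turned to 0.01 without stiff replicate 2.

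PSMB8 and PSMB9, the interferon-induced subunits that replace PSMB5 and PSMB6 in the immunoproteasome, did not pass. PSMB8 had 105, 138 and 104 CPM in stiff and 130, 141 and 134 CPM in soft (log2 fold change -0.22, edgeR adjusted p = 0.117). PSMB9 had 77.4, 103 and 78.5 CPM in stiff and 83.4, 97.3 and 94.8 CPM in soft (log2 fold change -0.09, edgeR adjusted p = 0.522). In both, stiff replicate 2 was the high stiff library and the groups overlapped. Without it, both were lower in stiff (log2 fold changes -0.36 and -0.23, edgeR adjusted p = 1.42e-05 and 0.00418). The antisense gene PSMB8-AS1, with 1539 to 2262 fragments per library, covers 20.6% of the PSMB8 exons, which leaves the PSMB8 count uncertain. The constitutive subunits PSMB5, PSMB6 and PSMB7 were not called either, with edgeR adjusted p of 0.763, 0.935 and 0.627. Without stiff replicate 2, PSMB5 and PSMB6 were lower in stiff as well (log2 fold changes -0.18 and -0.15, edgeR adjusted p = 0.0101 and 0.0238). PSMB10, the third inducible subunit, which stands outside the 40 genes, fell 1.61-fold.

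Of the other effectors, XAF1, which opposes the apoptosis inhibitor XIAP, showed the largest fall of the 40 genes. It had 58.1, 48.9 and 62.7 CPM in stiff and 225, 219 and 205 CPM in soft (3.83-fold, log2 fold change -1.94 ± 0.10 SE, edgeR adjusted p = 4.06e-07), and only 1.27% of tested genes had a lower log2 fold change. The gene PRAL covers 38.3% of the XAF1 exons on the opposite strand, so the XAF1 count is uncertain. TRIM22, a ubiquitin ligase that restricts several viruses, fell 2.07-fold, EPSTI1 fell 2.05-fold, and the phospholipid scramblase PLSCR1 fell 1.87-fold. OR56B1 had at most 3 fragments in a library but covers 10.7% of the TRIM22 exons, so the TRIM22 count is uncertain. LGALS3BP, a secreted glycoprotein that binds galectins, had 805, 832 and 846 CPM in stiff and 904, 926 and 924 CPM in soft. Its groups did not overlap, but the difference was small and did not pass (log2 fold change -0.15 ± 0.06 SE, edgeR adjusted p = 0.0667).

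Ratios of fragments within a library were taken for related pairs, most with a gene that did not follow; the pairs were chosen with their values known, so the ratios carry no test. RSAD2 had 2.74, 2.41 and 2.24 fragments for each CMPK2 fragment in stiff and 0.877, 0.952 and 0.951 in soft, so RSAD2 gave more fragments than CMPK2 in stiff and slightly fewer in soft. HERC5 had 0.664, 0.873 and 0.554 fragments for each HERC6 fragment in stiff and 0.167, 0.188 and 0.211 in soft, a 3.65-fold change of the ratio. GBP2 had 7.25, 7.64 and 7.32 fragments for each GBP1 fragment in stiff and 3.47, 3.18 and 3.78 in soft. The GBP2 ratio varied little within a condition and changed 2.13-fold between them. For OASL against OAS1, OAS2 and OAS3 the ratio changed 2.06-fold, 2.30-fold and 2.72-fold. PARP9 had 1.25, 1.39 and 1.40 fragments for each DTX3L fragment in stiff and 1.99, 2.08 and 1.94 in soft. PSMB8 had 1.29, 1.32 and 1.30 fragments for each PSMB5 fragment in stiff and 1.46, 1.48 and 1.49 in soft. A ratio within a library does not depend on scaling. These PSMB8 values did not overlap, but PSMB8 itself was not called and its count is uncertain. PSMB9 had 0.960, 0.967 and 0.956 fragments for each PSMB6 fragment in stiff and 0.925, 1.04 and 1.08 in soft, which overlapped. DDX60L averaged 0.264 ± 0.0121 fragments for each DDX60 fragment in stiff and 0.241 ± 0.0131 in soft (SD, n = 3 each), the smaller changes of ratio being those of these last 3 pairs.

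**Figure D2:**
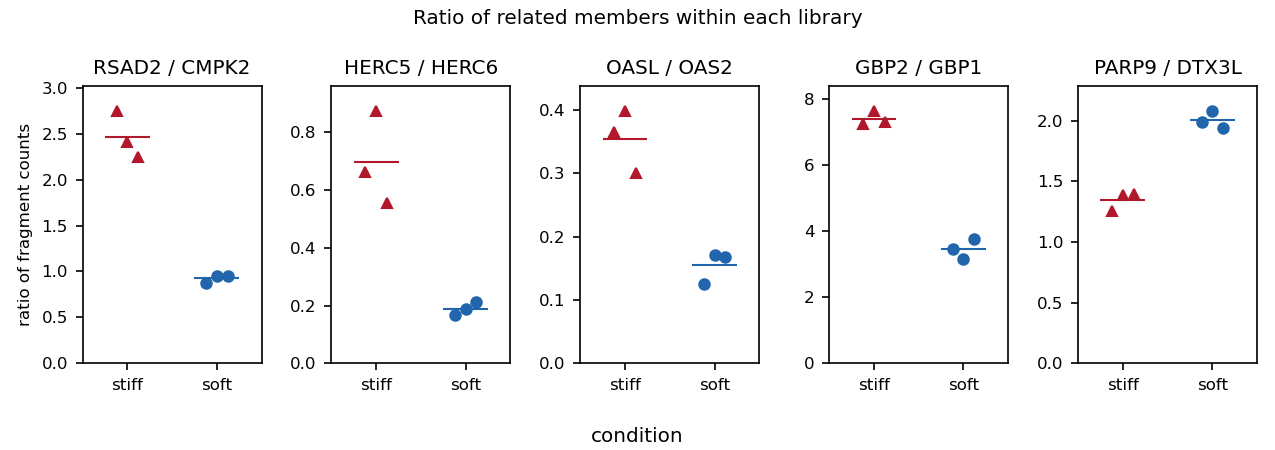
Ratio of fragment counts of 2 related genes (y axis, from 0) in each stiff library (triangles) and each soft library (circles), with the mean of 3 as a line. RSAD2/CMPK2, HERC5/HERC6, OASL/OAS2 and GBP2/GBP1 were higher in every stiff library than in any soft library, and PARP9/DTX3L was lower.

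Levels of different genes were compared as CPM per kilobase of transcript. The highest in stiff were IFI27 (539 ± 78.5), LGALS3BP (344 ± 8.64), IFI6 (338 ± 58.2), BST2 (234 ± 35.3), GBP2 (153 ± 3.87) and ISG15 (146 ± 31.2 CPM per kilobase, SD, n = 3). In soft they were IFI27 (849 ± 59.2), IFI6 (597 ± 34.1), LGALS3BP (382 ± 5.11), ISG15 (293 ± 27.4) and BST2 (273 ± 13.1 CPM per kilobase, SD, n = 3). In stiff, the levels of LGALS3BP and IFI6, and those of GBP2 and ISG15, differed by less than the larger of their SDs, as did those of ISG15 and BST2 in soft. In the order from high to low, RSAD2 was 25th in stiff and 35th in soft, GBP2 5th in stiff and 12th in soft, OASL 29th in stiff and 36th in soft, and XAF1 26th in stiff and 19th in soft. HERC5 (4.15 ± 0.276 in stiff and 2.97 ± 0.208 CPM per kilobase in soft) and DDX60L (3.37 ± 0.567 in stiff and 3.67 ± 0.164 CPM per kilobase in soft) were the lowest of the 40 in both conditions.

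**Figure D3:**
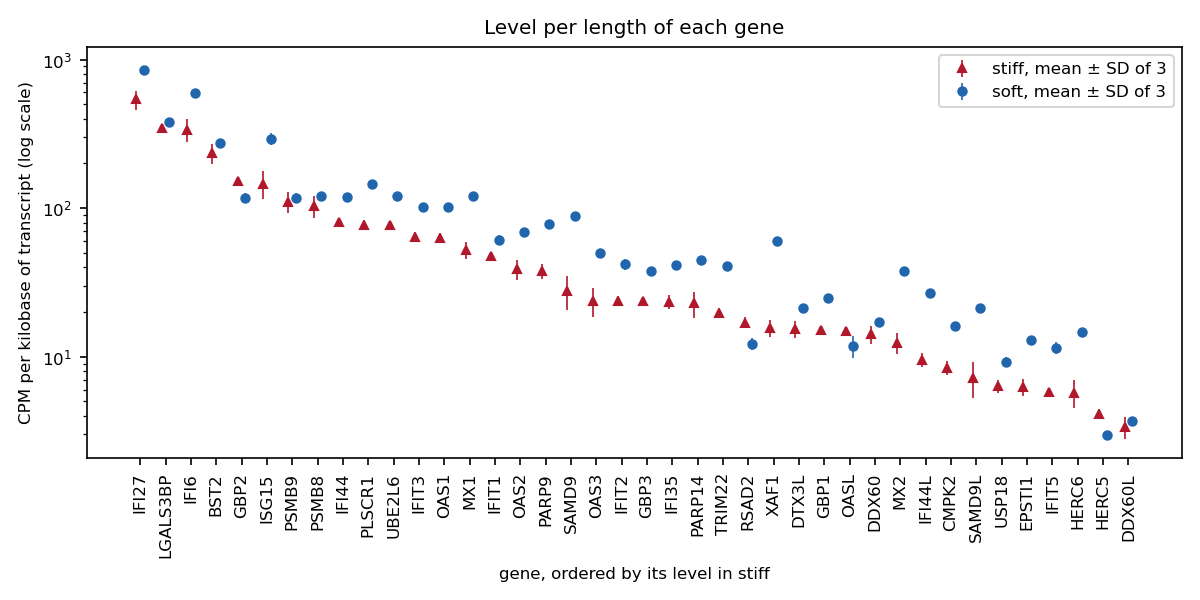
Level of each effector gene per kilobase of its transcript (y axis, log scale), as mean ± SD of 3 stiff libraries (triangles) and 3 soft libraries (circles), ordered by the stiff level. The levels run from 539 for IFI27 to 3.37 CPM per kilobase for DDX60L in stiff.

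The 40 genes, like all genes, varied more among the 3 stiff libraries than among the 3 soft libraries, with stiff replicate 2 standing apart. Over all tested genes, the SD of a library's log2 deviation from the others of its condition was 0.312 for stiff replicate 2 and 0.215 and 0.211 for stiff replicates 1 and 3, against 0.175 to 0.189 for the soft libraries. The values of stiff replicates 1 and 3 were taken against a mean that includes stiff replicate 2. Between stiff replicates 1 and 3 alone, the chi-square per degree of freedom was 3.26, below the 5.62 to 6.99 between soft libraries. Over the members, the median SD of log2 CPM was 0.166 in stiff and 0.0668 in soft, and it was larger in stiff for 32 of the 40. The deviation of stiff replicate 2 from the other stiff libraries followed transcript length: Pearson's r across the 40 genes was -0.912 and Spearman's rho -0.895, which are values of 1 library and across genes that are not independent. Over 15749 tested genes with a known length, r was -0.322. All 22 members of at least 3000 bases were lower in stiff replicate 2 than in the mean of stiff replicates 1 and 3 (median -0.29 on the log2 scale), whereas 14 of the 18 shorter members were higher (median 0.08). The range ran from SAMD9L, at 7134 bases (-0.70), to ISG15, at 711 bases (0.51). Of the 4 members that overlapped between groups, BST2, PSMB8 and PSMB9 have short transcripts of 1019, 1124 and 782 bases, and DDX60L has a long one of 6781 bases. With each library's trend on length removed, an alternative chosen after seeing the data, 34 members were lower and 4 higher. In that fit, 4885 of 18676 tested genes were lower and 5103 higher, against 4449 and 4722 in the main fit. BST2, PSMB8, PSMB9 and LGALS3BP were lower (edgeR adjusted p = 0.000349, 0.000621, 0.00698 and 0.0102), and DDX60 was not called (edgeR adjusted p = 0.0855). Outside the 40 genes, PSMB5 and PSMB6 were lower as well (log2 fold changes -0.17 and -0.18, edgeR adjusted p = 0.0388 and 0.0292). The ligase ARIH1 was higher (log2 fold change 0.30, edgeR adjusted p = 0.000845).

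**Figure D4:**
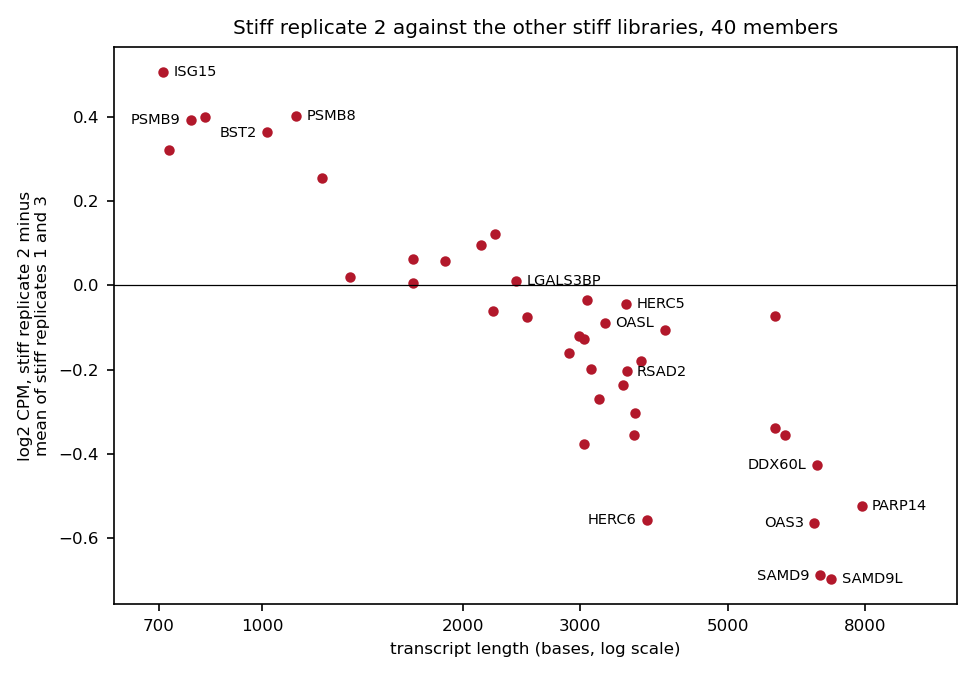
Transcript length of each of the 40 genes in bases (x axis, log scale) against the log2 CPM of stiff replicate 2 minus the mean of stiff replicates 1 and 3 (y axis). Points fall from 0.51 for the short ISG15 to -0.70 for the long SAMD9L.

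The lists of genes that act upstream of the effectors are set beside the share of all tested genes, 23.8% lower and 25.3% higher. Of 22 interferon ligand genes in the table, 12 had 0 fragments in all 6 libraries and only IFNE, an epithelial type I interferon, reached 10 fragments in at least 3 libraries; the other ligands had at most 7 fragments in a library. IFNE had 119, 105 and 124 fragments in stiff and 196, 134 and 120 in soft, before scaling to library size. As CPM it averaged 3.28 ± 0.289 in stiff and 4.17 ± 0.477 in soft (SD, n = 3 each). The stiff CPM values lay below the soft values, as in 29.6% of all tested genes. IFNE was not called (log2 fold change -0.35, edgeR adjusted p = 0.0807), nor was it with DESeq2 (adjusted p = 0.149). With library size only and with the length trend removed it was called lower (edgeR adjusted p = 0.0481 and 0.0421). The same held in both filtered limma fits on TPM (limma adjusted p = 0.0483 and 0.0493). Of 9 receptor and JAK genes, 4 fell, 2 rose and 3 were not called. JAK1 fell 1.63-fold, the receptor chains IFNAR2 and IFNGR1 fell 1.37-fold and 1.31-fold, and IFNGR2 rose 1.32-fold. Of 10 tested STAT and IRF genes, 4 fell, 4 rose and 2 were not called. STAT2 fell 1.28-fold to 150 ± 10.1 CPM in stiff, against 192 ± 7.88 CPM in soft (SD, n = 3 each), and IRF9 fell 1.31-fold (edgeR adjusted p = 0.00250 and 0.00178). IRF1, a factor induced by interferon-gamma, fell 1.80-fold, and IRF7, the amplifier of type I interferon, was not called (log2 fold change -0.10, edgeR adjusted p = 0.401). IRF3, the factor activated by the sensors, rose 1.20-fold (edgeR adjusted p = 0.0244, but 0.0768, 0.0583 and 0.107 without soft replicates 1, 2 and 3, 0.0629 with library size only and 0.149 to 0.169 in limma on TPM), and IRF5 rose 2.21-fold.

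Among 16 nucleic acid sensors and adaptors, 13 fell, 2 rose and 1 was not called (23.8% and 25.3% of all tested genes fell and rose), with a median log2 fold change of -0.59. The double-stranded RNA receptors IFIH1 and TLR3 fell 2.38-fold and 2.37-fold, and the kinase IKBKE fell 3.01-fold. TICAM1, the adaptor of TLR3, rose 1.54-fold. Of the partners of the effectors, UBA7, which activates ISG15, fell 1.24-fold, and PDE12, which degrades the products of the OAS enzymes, fell 1.35-fold. The ligase ARIH1 was not called (log2 fold change 0.09, edgeR adjusted p = 0.399). Of 9 feedback inhibitors, 2 fell, 2 rose and 5 were not called, near the shares of all genes; SOCS1, an inhibitor of JAK kinases, fell 2.07-fold.

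Of 15 genes of MHC class I presentation, 5 were lower, 3 higher and 7 not called, against 23.8% lower and 25.3% higher over all tested genes. TAP2, a subunit of the peptide transporter, fell 2.04-fold, and HLA-E, a ligand of natural killer cell receptors, rose by 0.67 on the log2 scale, with reads that other HLA genes may share. All 7 tested genes of the interferon-gamma list changed, 5 down and 2 up. The tryptophan-degrading enzyme IDO1 averaged 4.54 ± 0.829 CPM in stiff and 108 ± 3.35 CPM in soft (SD, n = 3 each), a 23.7-fold fall, and the tryptophan-tRNA ligase WARS1 fell 5.08-fold. The chemokine CXCL11 rose 1.87-fold. Of 47 other interferon-inducible genes, 24 fell, 7 rose and 16 were not called, with a median log2 fold change of -0.31. LAMP3 fell 3.47-fold, APOL6 fell 2.38-fold, TRIM25 fell 2.36-fold and TAPBPL fell 2.00-fold. The 7 that rose, which are named here with their values known, were IFITM1, IFITM2 and IFITM3, which block virus entry at membranes, TRIM5 and TRIM34, and the cytidine deaminases APOBEC3F and APOBEC3G. IFITM2 rose 2.08-fold and the others of the 7 rose 1.23-fold to 1.94-fold; the IFITM and APOBEC3 genes resemble each other closely enough to share reads, so their counts are uncertain.

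**Figure D5:**
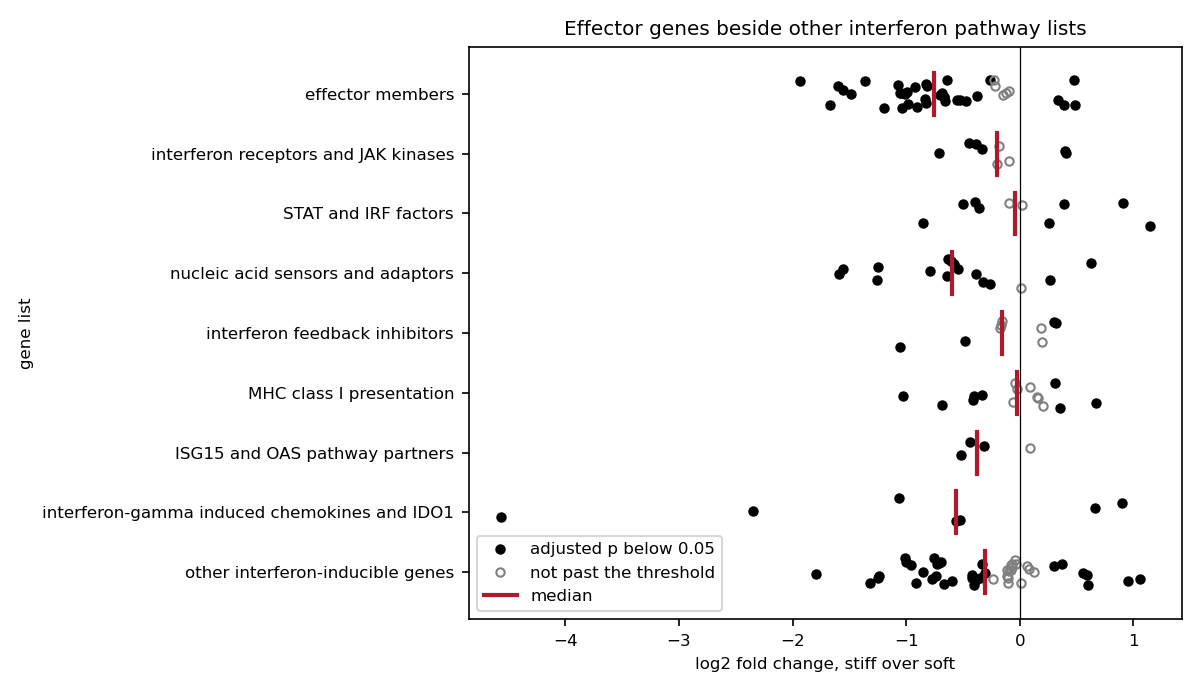
Log2 fold change of stiff over soft (x axis) for the 40 effector genes and 8 other lists of interferon pathway genes (rows); filled points passed an adjusted p below 0.05 in edgeR, open points did not, and red bars are medians. The effector genes have a median of -0.76, the sensors and adaptors -0.59, and the STAT and IRF factors -0.04.

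Falls were found both among effector genes with a match to the response element in their upstream bases and among those without one. Of the 22 effector genes with a match, 17 fell, 2 rose (HERC5 and RSAD2) and 3 were not called, with a median log2 fold change of -0.76. Of the 11 with a promoter in the table and no upstream match, 9 fell, 0 rose and 2 were not called, with a median of -0.69. Over all tested genes, 23.8% fell and 25.3% rose. OASL and GBP2, which also rose, had no promoter in the table, so whether they carry a match is not known. The same holds for USP18, IFIT2, MX2, OAS2 and TRIM22, which fell. XAF1, HERC6, OAS1, SAMD9L and CMPK2 were among the 11. So were GBP3, DTX3L and PSMB8, which had a match when the 50 bases after the start were included. A missing match says only that these letters are not in the 250 bases before a start.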

How the data were processed

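RNA was sequenced from 3 stiff and 3 soft libraries, grouped by their labels. The submitters' processing notes name featureCounts 1.6.2, STAR 2.6.1e, cutadapt 1.9.1, Trim Galore 0.4.2 and FastQC 0.11.7, and hg38. Annotation, strand setting and handling of multiply mapped reads were not given in the sources used here. Per the labels, polyadenylated RNA was selected. The authors deposited whole-number fragment counts per gene symbol, not normalized, and TPM in 1 table per library. Counts were tested with edgeR 4.0.16 (quasi-likelihood F test without covariates, TMM scaling, genes kept by filterByExpr) in R 4.3.3, with Benjamini-Hochberg adjustment over 18676 genes and a threshold of 0.05; the SE of a log2 fold change was derived from the F statistic. CPM was computed on TMM-scaled library sizes. The design named the deposited TPM for levels between genes. It was replaced by CPM per kilobase of the longest principal transcript (GENCODE release 29), because the length implied by counts over TPM followed the summed length of all transcripts of a gene (Spearman 0.700 over 10676 genes) more closely than transcript length (0.574). Genes with at least 10% of exons covered by another gene on either strand are called uncertain. Sequences and positions are from RefSeq, GRCh38.p14. Every member was named, and in each other list the 4 genes with the lowest p, plus STAT2, IRF9, IRF1, IRF3, IRF7, UBA7, PSMB5, PSMB6, PSMB7, IDO1, any ligand with at least 10 counts in 3 libraries and, for other cell types, the most abundant marker; some genes that this rule takes are not reported here. The members and lists were chosen with earlier results of these data known. Alternatives were DESeq2 1.42.0, other scaling and filters, a robust fit, limma 3.58.1 on log2(TPM + 1) and log2(TPM + 0.1), a stricter threshold of 0.01, a block on replicate number and leaving out each library. Removing each library's lowess trend on transcript length (span 0.3) was an alternative chosen after seeing the data. On simulated counts for this comparison, with 50 of 18419 genes changed at each size, edgeR found 6% of 1.25-fold, 52% of 1.5-fold, 80% of 2-fold and 94% of 4-fold changes, and 7.2% of its calls were false. In the data 49.1% of tested genes were called, a far larger share than was changed in the simulation. These rates therefore need not hold for the data.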

Additional observations from a re-analysis of the deposited data

How the results depend on the processing

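Of the 40 effector genes, 31 kept direction and side of the threshold under all 18 alternatives. The number lower in stiff ranged from 30 to 35 and the number higher from 1 to 4. With each library left out in turn, 30 to 35 were lower and 3 to 4 higher. Only 1 was higher in the unfiltered limma fit on log2(TPM + 1) (HERC5; OASL, GBP2 and RSAD2 had adjusted p of 0.246, 0.0621 and 0.0717), and 3 with either filtered TPM fit. Over all genes, 2880 and 2831 were higher with limma on log2(TPM + 1) and log2(TPM + 0.1), and 3138 without the filter, against 4722 in edgeR. Higher genes made up 41.3%, 41.6% and 43.3% of the calls in these fits and 44.7% with library size only, against 51.5%. The median of all genes was -0.11 on log2(TPM + 0.1). The sign turned, in genes not called in the main test, for DDX60L (0.00309 with the length trend removed), PSMB7 (-0.00483 with library size only, -0.0636, -0.0637 and -0.0636 with limma on TPM, -0.101 with the length trend removed) and ARIH1 (-0.0265, -0.0282 and -0.0265 with limma on TPM). Leaving out 1 library turned DDX60L (-0.218 to 0.00827), PSMB5 (-0.175 to 0.0281), PSMB6 (-0.150 to 0.0601) and PSMB7 (-0.0225 to 0.120). The cause was not tested. Log2 deviations of same-numbered libraries correlated at 0.134, 0.319 and 0.0954 for replicates 1, 2 and 3. The highest correlation with another number was 0.129, -0.153 and 0.115. Replicate 2 thus resembled its own number most clearly, replicate 1 hardly and replicate 3 not. The deviations of stiff and soft replicate 2 both fell with transcript length (Pearson's r over the members -0.912 and -0.582). The labels do not say that a number marks a shared culture, so the main fit used no pairs, and pairing was not settled. With the replicate block, 33 members were lower and 4 higher, and 10206 genes were called in place of 9171. The member with the fewest fragments, HERC5, had 498 to 540 in stiff and 345 to 401 in soft. Few changes of 1.25-fold were found on simulated counts, where a far smaller share of genes was changed than was called in the data.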
